A study of Mus musculus with 6 samples.

Results

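Inhibitory and lectin receptors of myeloid cells read surface ligands of other cells, microbes or damaged tissue. The inhibitory ones carry, or pair with partners that carry, tyrosine motifs that recruit the phosphatases SHP-1, SHP-2 or SHIP-1 and so dampen macrophage activation, whereas lectin receptors such as Dectin-1 and Mincle signal through the kinase Syk. ATF3, a basic leucine zipper factor induced by stress and by high-density lipoprotein (HDL), restrains inflammatory genes of macrophages and binds AP-1 and CRE sequences. ATF3 ChIP-seq peaks were collected here for 10 receptor genes chosen by name: Lair1, Sirpa, Cd300a, Cd300lf, Fcgr2b, Pilra, Clec12a, Clec4a2, Clec4e and Clec7a. They were named by 27 of the 16759 peaks in 6 peak lists, of which 17 of 11888 were standard peaks and 10 of 4871 KOIN-corrected peaks. Overlapping peaks of these genes were merged into 10 sites, and 3 of the genes (Clec4a2, Clec4e and Clec7a) had no peak in any list.

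The macrophages were grown from bone marrow of C57BL/6 mice with M-CSF at 40 ng/ml. The WT cells were Atf3 +/+ and came from mice aged 6 to 8 weeks, and the KO cells were Atf3 -/- and came from age- and sex-matched mice. Both genotypes were left unstimulated, given HDL at 2 mg/ml for 6 h, or given the same HDL followed by CpG, a DNA ligand of Toll-like receptor 9, at 100 nM for 4 h (HDL + CpG). The authors pooled the replicates, so each of the 3 conditions has 1 WT and 1 KO library. Any difference between conditions or genotypes is thus a difference between libraries, and all intervals and tests below cover counting error only. The WT libraries held 37137377 to 49467421 reads and the KO libraries 47504605 to 75534584. Peak lists hold no expression values, so neither the loss of ATF3 nor the macrophage identity could be checked from them. The promoter peak of Atf3 itself had a WT/KO of 1.73, 1.81 and 1.97 in unstimulated, HDL and HDL + CpG cells and was removed by KOIN in all 3. An intergenic Atf3 peak, at -47585, -47329 and -47450 bp in that order, had a WT/KO of 2.03, 3.18 and 3.21. It had a KOIN-corrected peak in all 3 conditions, and other upstream Atf3 peaks had such a peak too.

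KOIN (knockout implemented normalization) calls peaks in WT against the KO library, which shows signal that does not need ATF3. A standard peak was called on WT alone, and it counts as kept if it shared 1 bp or more with a KOIN-corrected peak, and otherwise as removed. Tags are reads in a peak scaled to a library of 10000000 reads, and WT/KO is the ratio of tags with its exact 95% interval. One scale limit touches every ratio. Standard peaks centred on satellites, simple repeats, low-complexity sequence or rRNA had a median WT/KO of 1.63 in unstimulated cells (910 peaks), 2.36 with HDL (1332 peaks) and 1.01 with HDL + CpG (933 peaks). Dividing by these medians lowers each ratio by 0.70, 1.24 and 0.02 on the log2 scale, and calls of the 10 genes that this ends are given on both scales.

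Of the sequences in the receptor gene peaks, those that hold an AP-1, ATF-C/EBP or PU.1 match are shown first, since ATF3 and its bZIP partners bind such AP-1 and ATF-C/EBP sequences and PU.1 is the lineage factor of macrophages. All are on the plus strand of mm9, 5′ to 3′, with the matches in capitals. The Lair1 window (chr7:4015454-4015694, within 120 bp of the middle of the peak with HDL + CpG, 5′ of the gene) holds a PU.1 match and, 8 bp further on, an AP-1 match, and it ends in a run of CA repeats:
Lair1: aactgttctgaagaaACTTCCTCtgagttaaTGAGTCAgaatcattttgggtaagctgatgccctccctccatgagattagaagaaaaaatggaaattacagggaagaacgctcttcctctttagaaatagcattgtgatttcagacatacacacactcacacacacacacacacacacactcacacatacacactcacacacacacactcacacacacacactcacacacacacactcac
The Cd300lf window (chr11:115000126-115000326, around the centre of the HDL peak) holds an AP-1 match read on the minus strand:
Cd300lf: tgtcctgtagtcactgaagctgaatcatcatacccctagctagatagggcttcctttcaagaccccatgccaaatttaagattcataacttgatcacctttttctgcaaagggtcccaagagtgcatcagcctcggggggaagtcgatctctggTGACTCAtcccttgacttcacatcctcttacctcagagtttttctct
Shorter stretches show the ATF-C/EBP match at Fcgr2b (chr1:172883530-172883559), the PU.1 match 3′ of Sirpa (chr2:129459297-129459326) and the AP-1 match in an intron of Pilra (chr5:138266484-138266512), whose peak was removed:
Fcgr2b: tgcctgcattgTGATGCAActcaaactgag
Sirpa: tcatggagtggGAGGAAGTgagagcggctg
Pilra: ctagttaagggTGAGTCAttctaggaaat

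Lair1 and Sirpa had the highest WT/KO with HDL, and Sirpa and Lair1 again with HDL + CpG. In unstimulated cells 1 of 4 standard peaks of the 10 genes was kept, against 20.7% of all 2779 standard peaks. With HDL 6 of 9 were kept, against 54.9% of 5319. With HDL + CpG 3 of 4 were kept, against 29.7% of 3790. These 10 kept peaks belong to Lair1, Sirpa, Cd300lf and Fcgr2b, and each KOIN-corrected peak had the bounds of its standard peak. The peaks with a WT/KO of at least 2 were the same in number, 1 of 4, 6 of 9 and 3 of 4, against a background of 31.3%, 66.6% and 34.7%. More WT than KO reads were found by an exact binomial test with Benjamini-Hochberg adjustment over all standard peaks in 4 of 4, 8 of 9 and 3 of 4 peaks, against a background of 56.2%, 79.5% and 40.9%. Standard peaks were called on these same WT reads, and kept peaks had also passed the 2-fold limit of the authors. An excess of WT was thus favoured in advance, and the p-values of single peaks below do not account for this selection. Scaled by the repeat peaks the count with more WT reads was 0 of 4, 2 of 9 and 3 of 4. The share of all standard peaks was not computed on that scale, so these counts cannot be set against a background. The median WT/KO of the genes' peaks was 1.87, 2.66 and 3.06 in unstimulated, HDL and HDL + CpG cells, where all standard peaks had medians of 1.66, 2.41 and 1.42. With 4 to 9 peaks per condition these counts describe single loci.

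**Figure D1:**
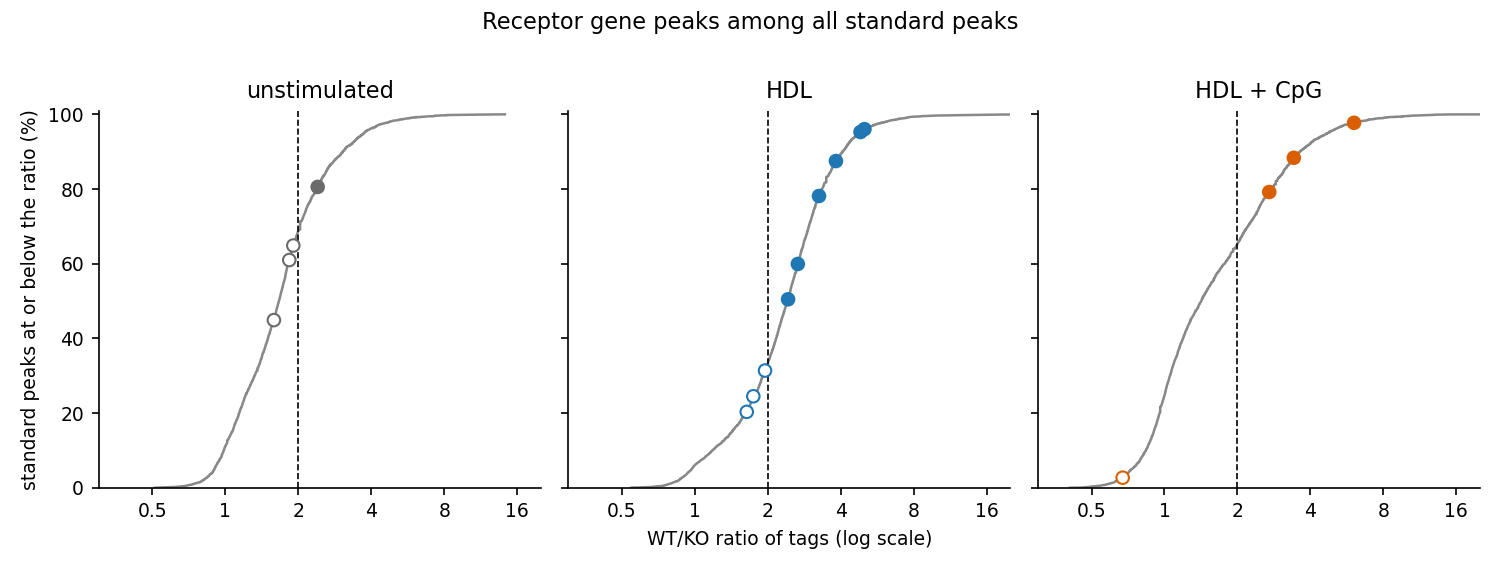
Cumulative share of all standard ATF3 peaks (%) by WT/KO ratio (log scale) in unstimulated, HDL and HDL + CpG macrophages (grey line). Circles are the peaks of the receptor genes, filled where kept and open where removed, with a dashed line at a ratio of 2. The receptor peaks are spread along the curve with HDL, and with HDL + CpG 3 of 4 lie in its upper part and 1 near its foot.

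Lair1 encodes the collagen receptor LAIR-1, which carries inhibitory tyrosine motifs. Its single site lies 5′ of the gene on the minus strand of chromosome 7, with the peak centre 0.921 kb upstream of the start site with HDL and 0.768 kb with HDL + CpG, which HOMER annotates as promoter. With HDL the peak (chr7:4015238-4016217) held 18.98 tags in WT and 3.94 in KO (72 and 26 reads). WT/KO was 4.82 (3.04 to 7.87), adjusted p = 2.33e-12 by the exact binomial test. With HDL + CpG (chr7:4015070-4016078) it held 17.99 tags in WT and 5.26 in KO (89 and 25 reads), and WT/KO was 3.42 (2.17 to 5.56) with an adjusted p of 1.29e-07 in the same exact test. Both peaks were kept, with WT and KO intervals that did not overlap. Scaled by the repeat peaks the ratios were 2.04 (adjusted p = 0.00958, exact binomial test) and 3.38. In unstimulated cells the nearest standard peak lay 289.4 kb from the Lair1 start site, so no tags are given for the site there.

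Sirpa encodes SIRPα, the inhibitory receptor for CD47, the "do not eat me" signal. It had more sites than any other of the 10 genes, with 7 standard peaks at 4 sites and a kept peak at each of the 4 in at least 1 condition. The gene lies on the plus strand of chromosome 2 from 129418571 to 129457964. At the promoter, centred 22 bp downstream of the annotated start site (chr2:129418243-129418951), a peak with HDL held 12.13 tags in WT and 2.42 in KO (46 and 16 reads). Its WT/KO was 5.01 (2.78 to 9.48), adjusted p = 1.80e-08 by the exact binomial test, higher than 96.0% of standard peaks with HDL, and 2.12 on the scale of the repeat peaks (adjusted p = 0.0463, exact binomial test). In intron 2, 2.70 kb from the start site (chr2:129421223-129422033), the HDL peak held 16.87 tags in WT and 6.96 in KO (64 and 46 reads). The ratio of 2.42 (1.63 to 3.62) was close to the median of all standard peaks with HDL, and it became 1.03 on the scale of the repeat peaks (adjusted p = 1.31e-05 and 0.978, exact binomial test). Neither of these sites had a standard peak in the other two conditions.

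The other Sirpa sites lie beyond the 3′ end of the gene, by 0.869 kb and by 8.52 kb. At the nearer, 40.3 kb from the start site, the HDL peak (chr2:129458833-129459554) held 10.02 tags in WT and 5.15 in KO (38 and 34 reads), and with a WT/KO of 1.95 (1.19 to 3.19) it was removed. The HDL + CpG peak (chr2:129458891-129459745) held 16.58 tags in WT and 2.74 in KO (82 and 13 reads), and with a WT/KO of 6.06 (3.35 to 11.9) it was kept. WT tags were thus higher and KO tags lower with HDL + CpG at this site. WT/KO with HDL + CpG was 3.11 times that with HDL (1.40 to 7.13, adjusted p = 0.0105 by a conditional exact test over 2385 shared peaks), and 7.27 times (adjusted p = 5.31e-07, same exact test) on the scale of the repeat peaks. Scaled by the repeat peaks the HDL ratio was 0.824 (adjusted p = 0.659, exact binomial test) and that with HDL + CpG 5.99. The unscaled HDL ratio lay just under the 2-fold limit that the authors applied to KOIN-corrected peaks. The centre of the HDL peak was annotated as a SINE, and that with HDL + CpG as intergenic with no repeat named.

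At the farther site the order was the opposite. In unstimulated cells this peak (chr2:129466486-129467391) held 12.39 tags in WT and 7.81 in KO (46 and 59 reads), and with a WT/KO of 1.59 (1.05 to 2.37) it was removed. With HDL (chr2:129466636-129467269) it held 14.76 tags in WT and 4.54 in KO (56 and 30 reads), and with a WT/KO of 3.25 (2.05 to 5.25) it was kept. With HDL + CpG (chr2:129466606-129467175) it held 7.08 tags in WT and 10.53 in KO (35 and 50 reads), and with a WT/KO of 0.672 (0.424 to 1.06) it was removed. Scaled by the repeat peaks the unstimulated ratio was 0.975 (adjusted p = 0.973, exact binomial test) and the ratio of the kept HDL peak 1.38 (adjusted p = 0.418, same exact test), against adjusted p-values of 0.0401 and 5.68e-07 on the deposited scale in that exact test. The HDL + CpG peak was the only 1 of the 17 with more KO than WT tags, lower in WT/KO than all but 2.66% of standard peaks with HDL + CpG, and yet its MACS score of 100.16 was the highest of the 4 in that condition. WT/KO with HDL + CpG was 0.207 times that with HDL (0.106 to 0.402, adjusted p = 4.56e-06 by the conditional exact test) and 0.424 times that in unstimulated cells (0.228 to 0.787, adjusted p = 0.0193, same exact test). With HDL it was 2.05 times that in unstimulated cells (1.09 to 3.86, adjusted p = 0.0777, same exact test). On the scale of the repeat peaks the first of these became 0.483 (adjusted p = 0.0495, same exact test) and the other comparison with HDL + CpG 0.682 (adjusted p = 0.435, same exact test). With HDL + CpG the peak centre was annotated as a simple repeat, and those of the other two as a LINE. The part of the repeat in these values was not tested.

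**Figure D2:**
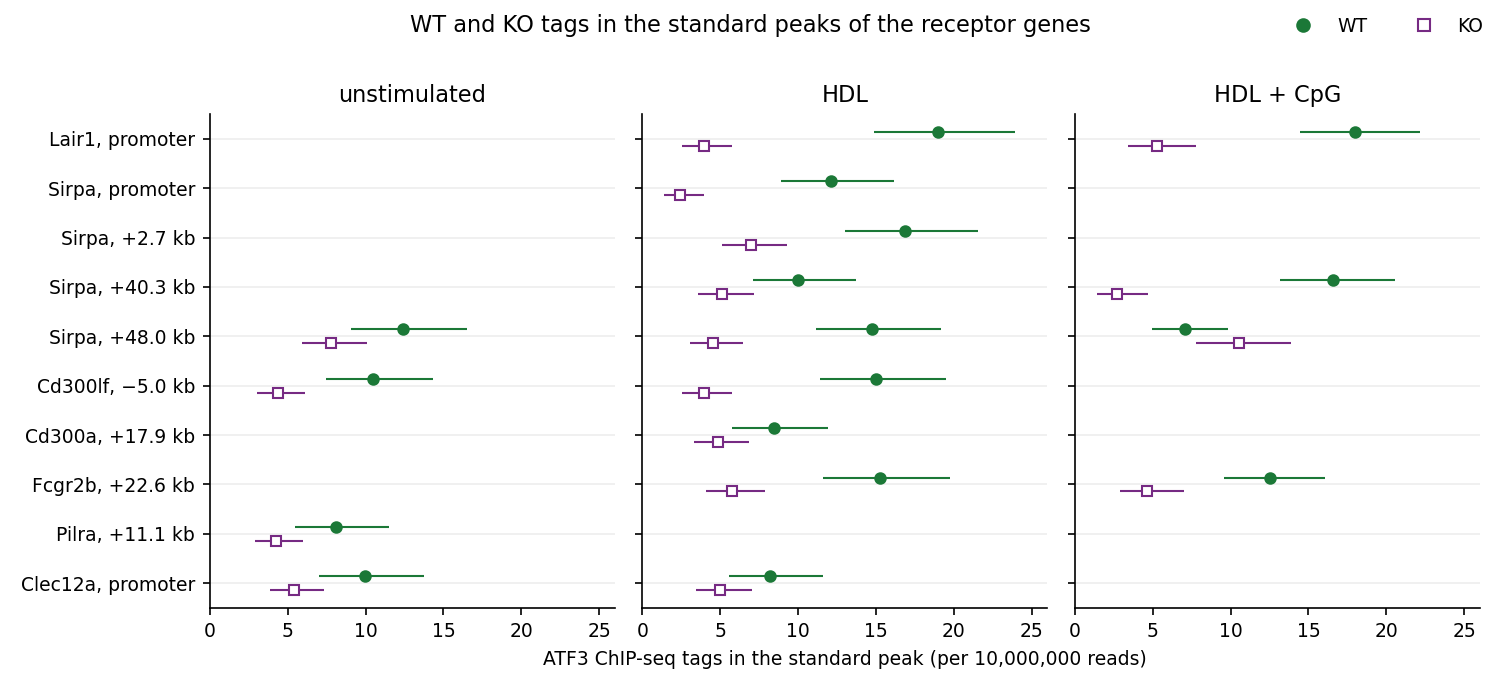
ATF3 ChIP-seq tags (per 10000000 reads) in the standard peaks of the receptor genes, by site and condition, in WT (circles) and KO (squares) libraries with exact 95% Poisson intervals of counting error. Sites without a symbol had no standard peak in that condition. KO tags exceed WT tags only at the Sirpa site 48.0 kb from the start site with HDL + CpG.

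Cd300lf and Cd300a encode members of the CD300 family with inhibitory motifs, which bind lipids such as phosphatidylserine and ceramide. The Cd300lf site lies upstream of the start site of this minus-strand gene on chromosome 11 and at the same time in intron 1 of Rab37, a gene on the plus strand, so that the nearest start site and the host gene differ. In unstimulated cells the peak (chr11:114999919-115000772, 5.04 kb upstream) held 10.50 tags in WT and 4.37 in KO (39 and 33 reads), and WT/KO was 2.40 (1.47 to 3.94) with an adjusted p of 8.06e-04 in the exact binomial test. It was kept, although no standard peak in that condition had a MACS score below its 40. With HDL (chr11:114999734-115000718, 4.92 kb upstream) the tags were 15.03 in WT and 3.94 in KO (57 and 26 reads), and WT/KO was 3.82 (2.36 to 6.33) with an adjusted p of 2.67e-08 in the same exact test. It was also kept. The ratio with HDL was 1.59 times the unstimulated one (0.783 to 3.23, adjusted p = 0.386 by the conditional exact test), a difference not detectable at this depth. After division by the repeat medians the ratios were 1.48 and 1.62, with adjusted p-values of 0.22 and 0.156 in the exact binomial test. Both centres lie on old transposons, an LTR in the unstimulated peak and a DNA transposon in the HDL peak. With HDL + CpG the nearest standard peak lay 168.5 kb from the start site.

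At Cd300a a single standard peak was found, with HDL, 17.9 kb from the start site and 2.88 kb past the 3′ end of the gene (chr11:114768850-114769622). It held 8.44 tags in WT and 4.84 in KO (32 reads in each), and WT/KO was 1.74 (1.03 to 2.94) with an adjusted p of 0.0349 in the exact binomial test, and was removed. The ratio was 0.737 after division by the repeat median (adjusted p = 0.502, exact binomial test). A KOIN-corrected peak with HDL that the annotation gives to the neighbour Cd300lb, an activating member of the family, lay 27.3 kb from the Cd300a start site.

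Fcgr2b encodes FcγRIIb, the inhibitory Fc receptor that recruits the phosphatase SHIP-1. Its site lies 6.60 kb past the 3′ end of this minus-strand gene on chromosome 1, between Fcgr2b and Fcrla, and was kept in both stimulated conditions. With HDL (chr1:172883021-172883899, 22.7 kb from the start site) it held 15.29 tags in WT and 5.75 in KO (58 and 38 reads), and WT/KO was 2.66 (1.74 to 4.11) with an adjusted p of 7.49e-06 in the exact binomial test. With HDL + CpG (chr1:172883241-172884085, 22.5 kb) it held 12.53 tags in WT and 4.63 in KO (62 and 22 reads), and WT/KO was 2.71 (1.64 to 4.62) with an adjusted p of 1.56e-04 in the same exact test. The ratios of the conditions differed by a factor of 1.02 (0.516 to 2.03, adjusted p = 1 by the conditional exact test), with an interval that reached about 2-fold in either direction. On the scale of the repeat peaks the HDL ratio fell to 1.13 (adjusted p = 0.818, exact binomial test) and that with HDL + CpG stayed at 2.68, so that the factor between them became 2.38 (adjusted p = 0.0193, conditional exact test). On that scale 45.2% of all 2385 peaks shared by these conditions passed. The peak centre was annotated as a LINE with HDL and as intergenic, with no repeat named, with HDL + CpG. The unstimulated list had no peak nearer than 68.6 kb, a peak given to Fcgr3.

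Pilra, which encodes the inhibitory partner of the paired PILR receptors, had a standard peak in unstimulated cells only, in intron 4 of 6 and 11.1 kb from the start site (chr5:138266113-138266770). It held 8.08 tags in WT and 4.24 in KO (30 and 32 reads), and WT/KO was 1.91 (1.12 to 3.24) with an adjusted p of 0.0276 in the exact binomial test, and was removed. Its ratio scaled by the repeat peaks was 1.17 (adjusted p = 0.774, same exact test).

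Clec12a encodes an inhibitory C-type lectin that senses uric acid crystals of dead cells. Its site on chromosome 6 was annotated by HOMER as promoter, centred at -115 bp from a start site in the unstimulated peak and at -73 bp in the HDL peak. In the GENCODE annotation of the same build this is an internal position that overlaps an exon, 7.44 kb from the gene's first base. The unstimulated peak (chr6:129299732-129300562) held 9.96 tags in WT and 5.43 in KO (37 and 41 reads), and WT/KO was 1.84 (1.14 to 2.93) with an adjusted p of 0.0166 in the exact binomial test. The HDL peak (chr6:129299896-129300483) held 8.17 tags in WT and 5 in KO (31 and 33 reads), and WT/KO was 1.64 (0.969 to 2.76) with an adjusted p of 0.0631 in the same exact test. Both were removed. After division by the repeat medians the ratios were 1.13 (adjusted p = 0.804, exact binomial test) and 0.692 (adjusted p = 0.378, same exact test). On the deposited scale the HDL ratio was 0.891 times the unstimulated one (0.436 to 1.82, adjusted p = 0.889 by the conditional exact test), within counting error.

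**Figure D3:**
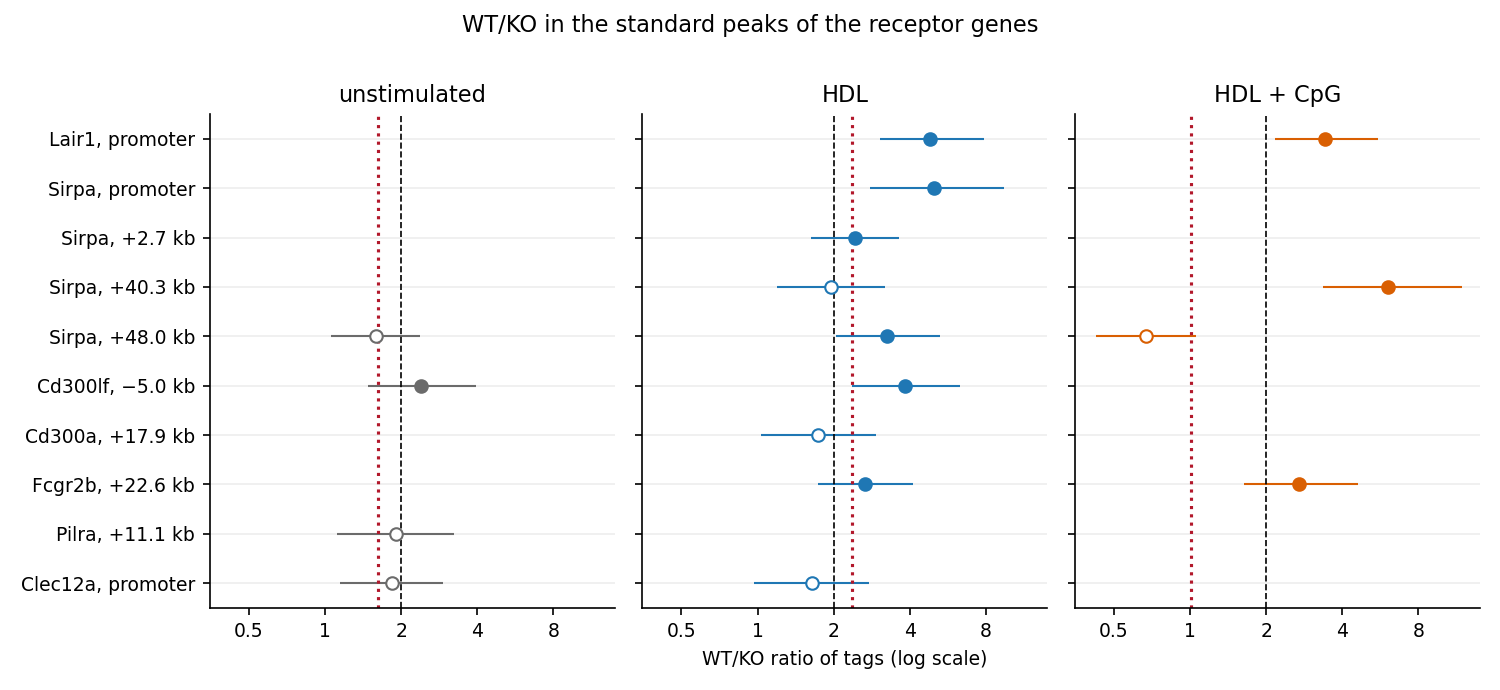
WT/KO ratio of tags (log scale) in each standard peak of the receptor genes, by site and condition, with exact 95% intervals of counting error. Filled circles were kept and open circles removed, with a dashed line at a ratio of 2 and a dotted line at the median WT/KO of repeat peaks in that condition. With HDL the whole intervals of Lair1 and the Sirpa promoter lie to the right of the dotted line. The intervals of all other HDL peaks span it, that of Cd300lf only just.

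Clec4e (Mincle, a receptor for mycobacterial glycolipids), Clec7a (Dectin-1, the β-glucan receptor) and Clec4a2 (DCIR, an inhibitory lectin) were named by no peak. They lie on chromosome 6 in clusters of lectin genes, where HOMER gave the nearby peaks to other genes. For Clec4e the nearest standard peaks lay 23.8 kb from its start site in unstimulated cells and 37.0 kb with HDL. Both were given to Clec4d, the partner lectin of Mincle, and were kept, with WT/KO of 2.48 (1.61 to 3.84) in intron 2 of Clec4d and 4.49 (2.94 to 7.04) upstream of it. With HDL + CpG the nearest to Clec4e was a KOIN-corrected peak 62.1 kb away, given to Clec4n, which encodes Dectin-2. For Clec7a the nearest peaks lay 38.4 kb away unstimulated and 38.5 kb with HDL, both in intron 3 of Clec1a and kept, with WT/KO of 4.19 (2.24 to 8.16) and 2.54 (1.62 to 4.02). With HDL + CpG the nearest standard peak to Clec7a lay 236.6 kb away. For Clec4a2 no standard or KOIN-corrected peak lay nearer than 121.4 kb in any condition. Assignment to the nearest start site does not say which gene a site regulates.

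Between conditions, 8 comparisons were possible at 6 sites of the 10 genes, since WT/KO can be compared only where both lists hold a peak. Of these, 3 passed at an adjusted p of 0.05 and all 3 were at the 2 Sirpa sites beyond the gene. The share that passed among all shared peaks was 21.7% for HDL against unstimulated, 27.7% for HDL + CpG against unstimulated and 35.9% for HDL + CpG against HDL. In these pairs the median factor between the ratios was 1.26, 0.759 and 0.707, in the same order. On the scale of the repeat peaks the share of all shared peaks that passed was 18.5%, 22.6% and 45.2%, again in that order. At Lair1 the ratio with HDL + CpG was 0.709 times that with HDL (0.359 to 1.40, adjusted p = 0.501 by the conditional exact test), so the loss or gain of WT/KO there was not detectable. The 4 comparisons of HDL + CpG with HDL share libraries with those of the other conditions and are not independent of them.

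**Figure D4:**
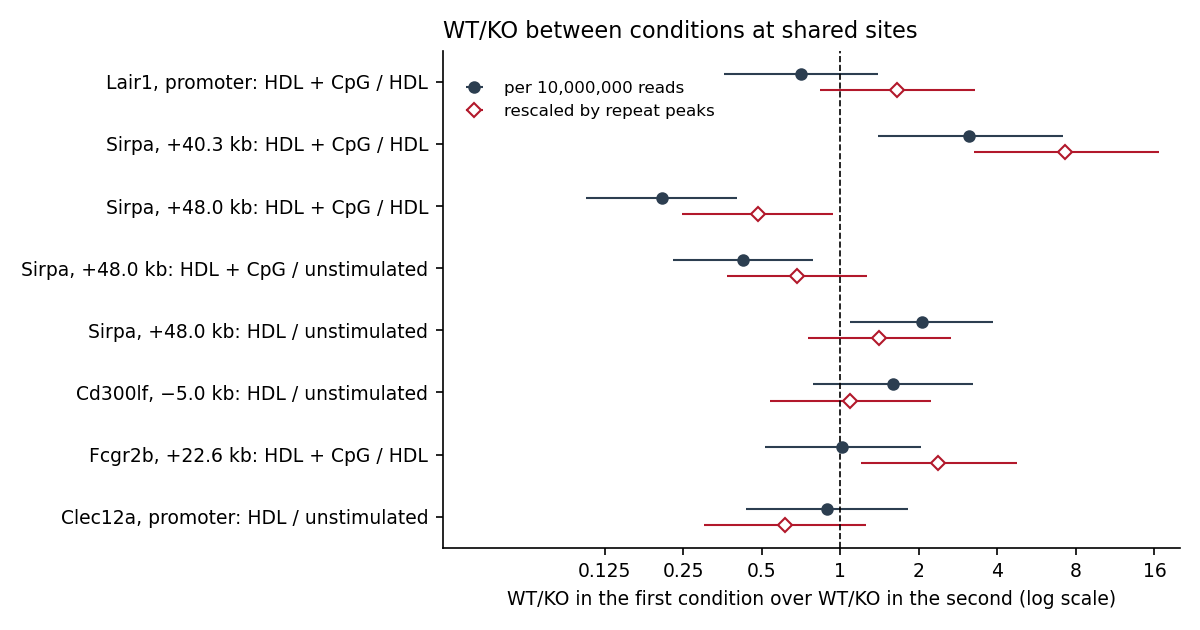
WT/KO in the first condition divided by WT/KO in the second (log scale) at the sites of the receptor genes found in both, with exact 95% intervals of counting error. Circles use tags per 10000000 reads and diamonds the scale of repeat peaks, and the dashed line marks no difference. The Sirpa site at 40.3 kb lies to the right and that at 48.0 kb to the left of the line for HDL + CpG against HDL on both scales.

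AP-1 (TGAGTCA), CRE (TGACGTCA), ATF-C/EBP (TGATGCAA) and PU.1 (GAGGAAGT) sequences were counted on both strands of the peaks. Whole peaks held AP-1 at Lair1, Cd300lf and Pilra and ATF-C/EBP at Fcgr2b, so that 4 of the 10 sites held a bZIP sequence, and CRE was found at none. These sites merge peaks of several conditions, so the like comparison is by single peaks. Whole standard peaks of the 10 genes held an AP-1, CRE or ATF-C/EBP sequence in 2 of 4, 3 of 9 and 2 of 4 cases in unstimulated, HDL and HDL + CpG cells. Among all standard peaks the share was 24.5%, 33.0% and 31.5%. With so few peaks these counts are not read as a trait of the genes. Within 100 bp of the peak centre an AP-1, CRE or ATF-C/EBP sequence was present in 2 of 4, 2 of 9 and 1 of 4 peaks in unstimulated, HDL and HDL + CpG cells. Among all standard peaks the share was 11.4%, 19.7% and 18.5%. Kept peaks of the whole lists held such a sequence in 30.1%, 25.5% and 42.1%, and removed peaks in 6.58%, 12.6% and 8.56%. The AP-1 match at Lair1 (4015485 to 4015491) lay 239 bp from the peak centre with HDL and 86 bp from that with HDL + CpG. At Cd300lf the match (115000280 to 115000286) was 57 bp from the HDL centre and 62 bp from the unstimulated one, on opposite sides. The match at Pilra was 57 bp from the centre of a removed peak. The ATF-C/EBP match at Fcgr2b (172883541 to 172883548) was 85 bp from the HDL centre and 118 bp from that with HDL + CpG.

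None of the 4 Sirpa sites held an AP-1, CRE or ATF-C/EBP sequence in these letters, including the promoter with the highest WT/KO under HDL. PU.1 sequences, of the macrophage lineage factor, were present in intron 2 of Sirpa, at the Sirpa site near the 3′ end, 6 bp from its centre with HDL + CpG (129459308 to 129459315), and at Lair1, where the PU.1 match (4015469 to 4015476) is separated from AP-1 by 8 bp. These are matches anywhere in a peak, which 7.70%, 10.2% and 9.95% of all standard peaks held in unstimulated, HDL and HDL + CpG cells. A match describes the letters in the reference and not binding.

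**Figure D5:**
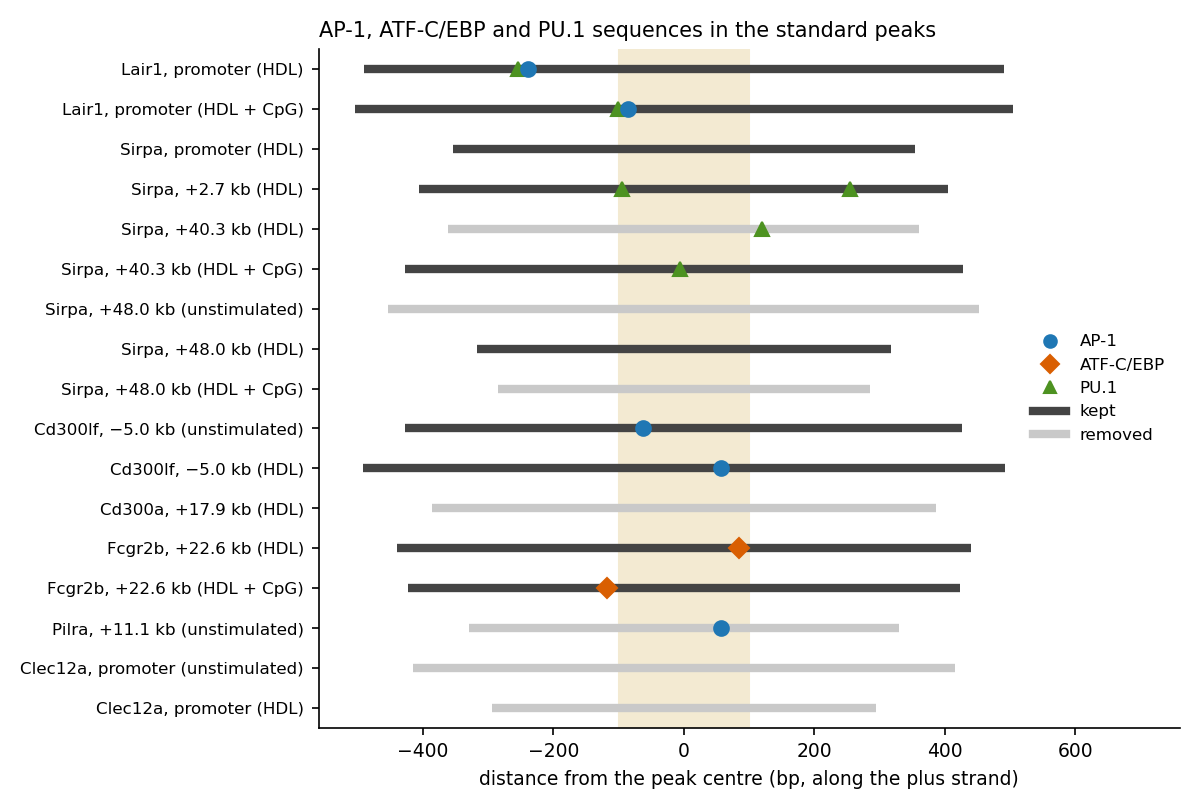
Position (bp from the peak centre) of AP-1, ATF-C/EBP and PU.1 sequences in the 17 standard peaks of the receptor genes. Bars span each peak, dark where kept and light where removed, and the shaded band marks 100 bp on each side of the centre. The Sirpa rows hold PU.1 triangles and no AP-1 or ATF-C/EBP symbol.

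The other genes of the family were taken from a list of 75 inhibitory receptors with their relatives, C-type lectins, Fc receptors, ligands and signalling proteins. Of them 31 had a standard peak and 23 a KOIN-corrected peak in at least 1 condition. Their standard peaks were kept in 4 of 13 cases unstimulated, 15 of 28 for HDL and 13 of 24 after HDL + CpG, and their median WT/KO was 1.60, 2.33 and 2.22. Signalling genes kept 14 of 19 over the 3 conditions, C-type lectins 8 of 13, inhibitory receptors with their relatives 7 of 18, ligands 2 of 4 and Fc receptors 1 of 11, against 38.9% of all 11888 standard peaks. These groups were not sorted by function. The receptor group also holds relatives such as Sirpb1b, Cd300c and the activating Cd300lb, and the signalling group holds Treml1, so 7 of 18 is not a count for inhibitory receptors alone. A site found in several conditions counts once in each, so these peaks are not independent. The share of all standard peaks kept was 20.7%, 54.9% and 29.7% in unstimulated, HDL and HDL + CpG cells, and the groups differ in their mix of conditions. Card9, the adaptor through which Dectin-1 and Mincle activate NF-κB, had a promoter peak removed in unstimulated cells (WT/KO 1.69, 1.04 to 2.72) and kept with HDL (3.79, 2.49 to 5.87) and HDL + CpG (5.57, 2.82 to 12.2). Inpp5d, which encodes SHIP-1, the phosphatase recruited by FcγRIIb, had kept peaks with HDL + CpG in intron 1 (4.13, 2.04 to 9.22) and intron 2 (3.30, 2.05 to 5.50), the first also with HDL (2.30, 1.37 to 3.90). Tyrobp, the DAP12 adaptor, had a kept peak at -19.2 kb with HDL + CpG (6.40, 3.16 to 14.7). Clec5a, a DAP12-coupled lectin, had a kept peak at -9.27 kb with HDL (4.86, 3.01 to 8.11), and Treml1, of the TREM family, at -3.88 kb (4.12, 2.71 to 6.39).

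Several further receptor genes had a KOIN-corrected peak in the same list. With HDL these were Fcgr3, an activating Fc receptor (3.01, 1.98 to 4.65), the lectin gene Clec4a1 at its promoter (2.79, 1.73 to 4.55), the inhibitory receptor genes Havcr2 (TIM-3) in intron 3 (3.48, 1.96 to 6.40) and Cd33 in intron 3 (2.35, 1.56 to 3.57), and the adaptor gene Dok1 (2.99, 1.70 to 5.38). The Dok1 peak lay 36.7 kb from that start site, in an intron annotated to a different transcript from the one at the Dok1 promoter. With HDL + CpG they were Siglecg (2.84, 1.70 to 4.90), Lilrb3 (3.63, 1.70 to 8.60) and Sirpb1b (2.21, 1.51 to 3.29). Sirpb1b and Lilrb3 belong to families of near-identical genes, so reads there may have been placed at a paralog. The Fcgr3 site was removed in unstimulated cells (1.60, 1.01 to 2.52) and with HDL + CpG (1.64, 1.03 to 2.65), and the Dok1 site with HDL + CpG (1.63, 1.06 to 2.53). Sirpb1b was removed unstimulated (1.48, 0.959 to 2.26) and with HDL (1.58, 1.08 to 2.29), and the Clec5a site unstimulated (1.56, 0.961 to 2.52). Kept peaks were also found at Siglecg with HDL (3.17) and, with HDL + CpG, at Clec5a (2.79, 1.67 to 4.82) and Treml1 (3.25, 1.90 to 5.85). On the scale of the repeat peaks the HDL values among these are lower by the factor of 2.36 given above.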

How the data were processed

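ATF3 ChIP-seq of mouse macrophages gave a standard and a KOIN-corrected peak list for each of 3 conditions. As described by the study, reads were concatenated over replicates, aligned to mm9 with Bowtie, called with MACS and annotated with HOMER to the nearest start site. Versions in the submitters' processing notes are MACS 1.4.2, HOMER 4.3, Bowtie 0.12.8 and CASAVA 1.8. The deposited signal is the tag count per peak, normalized by the authors to 10000000 reads, and the deposited score is the MACS score. The authors left out KOIN-corrected peaks with a WT/KO under 2.

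Every tag value lay within 0.005 tags of whole reads at the library totals in the file headers, and reads were recovered from these. WT and KO reads of each standard peak were compared by a two-sided exact binomial test against the share expected from the totals. WT/KO of overlapping peaks was compared between conditions by a two-sided conditional exact test. Both were adjusted by Benjamini-Hochberg over all peaks or pairs and were tested on simulated data. Ratios have exact (Clopper-Pearson) and tags exact Poisson 95% intervals. All 16759 peaks lie inside the chromosomes of NCBIM37, the assembly of mm9, from which sequences were read, and GENCODE vM1 gave the gene bounds. Windows that touch an annotated UTR were not printed, and 1 further sequence is not reported here.

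The genes and lists were chosen with earlier results of these data known. All 10 genes are described with every peak, and of the 75 other genes those with the 15 highest KOIN scores are named. The list of barcodes was not used. Alternatives tried were limits of 10 and 100 kb on distance, minimum scores of 60 and 100, an overlap of 50%, no repeats, a pseudocount of 1 tag, the tags of the KOIN-corrected peaks, Bonferroni adjustment, windows of 50 bp or whole peaks, and WT/KO divided by the median of repeat peaks. Computations used scipy 1.17.1, pandas 2.3.3, numpy 2.4.6, matplotlib 3.10.9 and pysam 0.24.0 in Python 3.11.15, with samtools 1.23.1.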

Additional observations from a re-analysis of the deposited data

Results flagged for a closer look

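WT/KO differed between conditions at the 2 Sirpa sites beyond the 3′ end of the gene. At the site 40.4 kb from the start site WT/KO with HDL + CpG was 3.11 times that with HDL. At the site 48.0 kb away it was 0.207 times that with HDL and 0.424 times that in unstimulated cells. On the scale of repeat peaks the last of these did not pass (0.682, adjusted p = 0.435 by the conditional exact test). With 1 pooled library per genotype and condition, condition and library cannot be told apart.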

How the results depend on the processing

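Counts of kept peaks depended most on the score and on repeats. With scores of at least 60, kept peaks fell to 0 of 1 in unstimulated cells, as did those with a WT/KO of at least 2, and 1 of 1 had more WT reads. With scores of at least 100, 1 of 2 was kept with HDL and 0 of 1 with HDL + CpG, and no unstimulated peak was left. Without repeats 0 of 2 were kept unstimulated and 3 of 5 with HDL, and within 10 kb 1 of 1 with HDL + CpG. Repeats were judged by the HOMER annotation alone. The Lair1 peaks, annotated as promoter, therefore stayed in although they hold the run of CA repeats. Under the scale of repeat peaks 0 of 4 unstimulated and 2 of 9 HDL peaks had a WT/KO of at least 2, and the same numbers had more WT reads. Ratios then turned below 1 at the Sirpa site 48.0 kb away in unstimulated cells (0.975) and, with HDL, at Cd300a (0.737), the Sirpa site 40.3 kb away (0.824) and Clec12a (0.692, which had no call). By Bonferroni 0 of 4 unstimulated peaks had more WT reads, where 4 had an unadjusted p under 0.05 in the exact binomial test. Within 50 bp of the centre 0 peaks of the 10 genes held an AP-1, CRE or ATF-C/EBP sequence in any condition. Among all standard peaks the share there was 6.91%, 11.2% and 11.4% in unstimulated, HDL and HDL + CpG cells. With so few peaks, 0 is near this background. Whole peaks held such a sequence in 2 of 4 with HDL + CpG, against 31.5% of all standard peaks. Of the other genes, at scores of at least 60, 1 of 3, 7 of 12 and 5 of 9 were kept. The remaining 30 recomputed counts stayed within 1.5 times the main ones. Except for the sequence counts, the recomputed counts have no share of all standard peaks beside them, since it was not computed. Of the single-peak ratios and the factors between conditions, 11 lost and 1 gained their call under the scale of repeat peaks. The gained call was the Fcgr2b factor for HDL + CpG against HDL, where 45.2% of all shared peaks passed on that scale. No paired analysis was possible because each group is 1 pooled library, and no replicate could be left out. The cause of these changes was not tested. Peaks held 30 to 89 WT reads and 13 to 59 KO reads, which limits the precision of each ratio.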
